A study of Arabidopsis thaliana with 18 samples.

Results

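Transcripts encoded in the chloroplast genome and in the mitochondrial genome of Arabidopsis thaliana were followed across flower stages and LEJ1 genotypes. The members are the ATH1 probe sets in the block of consecutive identifier numbers given to organelle sequences that the platform annotation assigns to a single gene with a lower-case symbol. That block holds 150 probe sets, of which 105 are annotated, 9 of them with several genes and 15 with an upper-case symbol. The remaining 81 of 22810 probe sets on the array are the members, 69 for chloroplast genes and 12 for mitochondrial genes. After the filter on dim probe sets, 61 chloroplast and 8 mitochondrial members were tested, within 15113 tested probe sets of the whole array.

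The chloroplast genome carries genes for core subunits of both photosystems, the cytochrome b6f complex, the ATP synthase, an NADH dehydrogenase-like complex and the large subunit of Rubisco, along with ribosomal proteins and subunits of its own bacterial-type RNA polymerase. Many of its genes are transcribed together in operons and the long RNAs are then cut, spliced and edited. The mitochondrial genome carries genes for subunits of the respiratory chain and for the pathway that attaches haem to cytochrome c, and the nucleus supplies most other proteins of both organelles.

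The genotypes were 3: wild type (WT), the line 35S:AtLEJ1/5-8, in which the 35S promoter drives AtLEJ1 in most tissues (OE), and an atlej1 mutant (KO). Each genotype gave closed buds (floral stages 1 to 12) and flowers that had opened (stages 13 and 14), from plants 5 weeks old grown in long days, with 3 arrays in each of the 6 groups. The overexpressor is represented by 1 line, and the growth text of every sample reads wild-type, so genotypes were taken from titles and source names. RNA came from whole buds or flowers, so fewer plastid-rich cells, fewer organelles in a cell and less RNA in each organelle cannot be told apart.

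Of the 6 tapetum markers 2 had a named and tested probe set, A9 and AMS, whose summed intensity was 4670 to 5648 in buds and 12.4 to 221 in open flowers. Of the 6 pollen markers 3 were tested, ANX1, ANX2 and SWEET5, with sums of 1840 to 3409 in buds and 513 to 1021 in open flowers. The sum follows the bright SWEET5, which averaged 2056 in WT buds and 67.7 in WT open flowers. The other 2 rose, ANX1 from 55.9 to 111 and ANX2 from 68.2 to 427 in WT. In OE and KO the means also fell for SWEET5 and rose for ANX1 and ANX2. None of the 7 floral identity markers listed had a named probe set, and the level of LEJ1 was not analysed here.

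Chloroplast transcripts varied widely between arrays of the same group. The within-group SD of log2(intensity + 16), pooled over the 6 groups, had a median of 0.66 over the 61 tested chloroplast members and of 0.23 over all 15113 tested probe sets. A value of 0.66 exceeds that of 98.2% of tested probe sets. Of the 61 members, 56 lay above the median SD of all tested probe sets and 42 lay above its 90th percentile of 0.41. The 8 mitochondrial members had a median SD of 0.31, larger than that of 77.5% of tested probe sets.

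Replicates of a group moved many chloroplast members together. The array median over the chloroplast members was 10.54, 9.60 and 10.40 on the log2 scale on the WT bud arrays and 10.46, 11.06 and 10.47 on the WT open flower arrays. In OE it was 11.16, 9.74 and 9.99 in buds and 10.61, 9.51 and 9.58 in open flowers. In KO it was 11.32, 10.85 and 9.65 in buds and 11.07, 10.59 and 10.51 in open flowers. Replicate 1 had the highest chloroplast median in 5 of the 6 groups, WT open flowers being the exception.

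**Figure D1:**
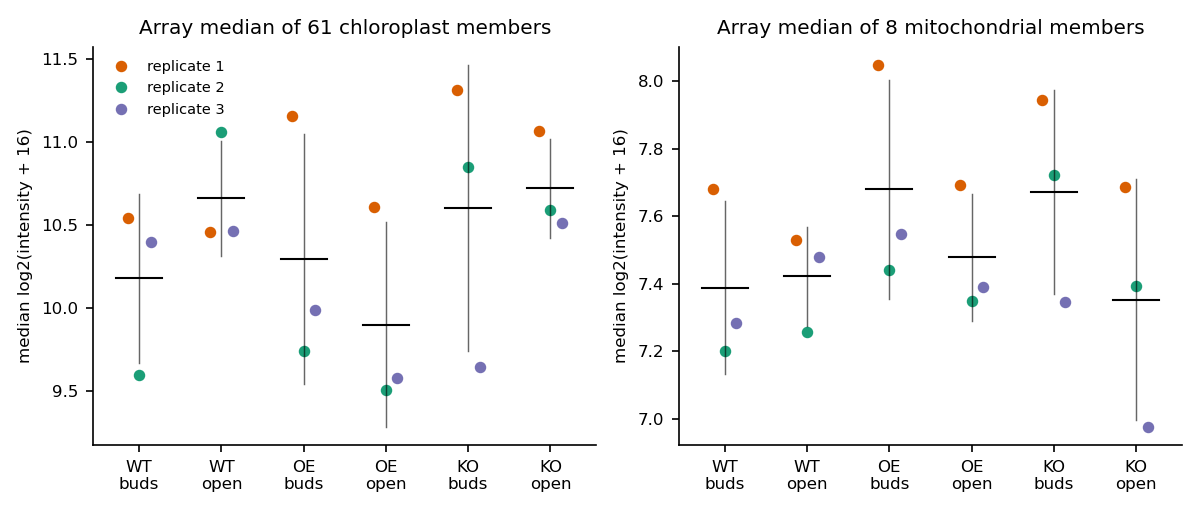
Array medians of log2(intensity + 16) over the 61 tested chloroplast members (left) and the 8 tested mitochondrial members (right) for each group; points are arrays coloured by replicate number, horizontal lines are means and vertical lines are SDs over 3 arrays. Replicate 1 is the highest point in 5 of 6 groups on the left.

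Of the chloroplast members, 48 of 61 were higher in replicate 1 than in replicates 2 and 3 on average, with a median difference of 0.68 on the log2 scale, against -0.01 over all tested probe sets. All 8 mitochondrial members were higher in replicate 1, with a median difference of 0.28. Transcript completeness was read from the log2 ratio of 3' over 5' probe sets for actin, GAPDH and ubiquitin, which was 1.68 ± 0.09 (SD, n = 6) on replicate 1 arrays and 1.89 ± 0.11 (SD, n = 12) on the others, with ranges of 1.54 to 1.78 and 1.65 to 2.02. The part of RNA integrity in these differences was not tested.

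The spread between replicates differed from one group of neighbouring genes to another. The smallest within-group SDs were those of atpB (0.14) and atpE (0.15), neighbouring genes for the beta and epsilon subunits of the ATP synthase, and of psaJ (0.19), a small photosystem I subunit. The atpB intensity, at 18314, 16681 and 21129.7 on the WT bud arrays, stayed between 16287 and 21469 over all 18 arrays. Large SDs were those of atpF (1.44), atpA (1.38), psaC (1.37) and atpH (1.29), and the highest array exceeded the lowest of its own group by up to 33.9-fold for psbK. The low-SD genes were bright, with mean log2 signals of 14.22 for atpB, 14.02 for atpE and 13.19 for psaJ. Those of atpF, atpA, psaC and atpH were 9.63, 11.74, 8.68 and 9.06. The part of signal level in the spread was not tested. ndhD read 6557, 2067 and 409 on the KO bud arrays. These genes were singled out after their values were seen. ndhD encodes a membrane subunit of the NADH dehydrogenase-like complex, psaC the terminal iron-sulphur protein of photosystem I, and atpA, atpF and atpH further ATP synthase subunits.

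Subunits of 1 complex differed in spread. The ATP synthase genes of the atpA operon, with rps2, had a median SD of 1.34 and the atpB operon one of 0.15. The rpoC1 and rpoC2 genes for the plastid RNA polymerase had a median of 1.12, and rpoA, for its alpha subunit, an SD of 0.49 within the ribosomal protein cluster from rps19 to rpoA, whose median was 0.46. The psbE operon, with the cytochrome b559 genes psbE and psbF, had 0.31, and the genes from ndhH to ndhD had 1.04. The operons are textbook units listed after the values were seen, and the comparison is a description.

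**Figure D2:**
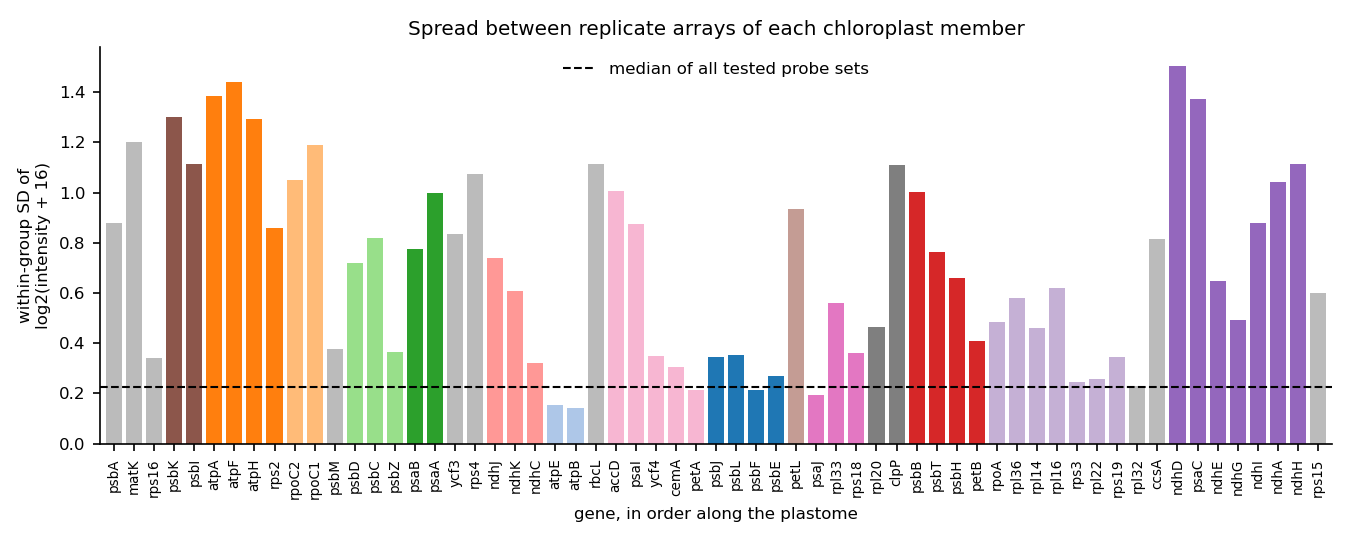
Within-group SD of log2(intensity + 16) (vertical axis) of each tested chloroplast member in gene order along the plastid genome; neighbouring bars of 1 colour belong to 1 transcription unit, light grey bars to none listed, and the dashed line is the median of all tested probe sets (0.23). Low bars at atpE and atpB stand beside high bars at rbcL and accD.

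**Figure D3:**
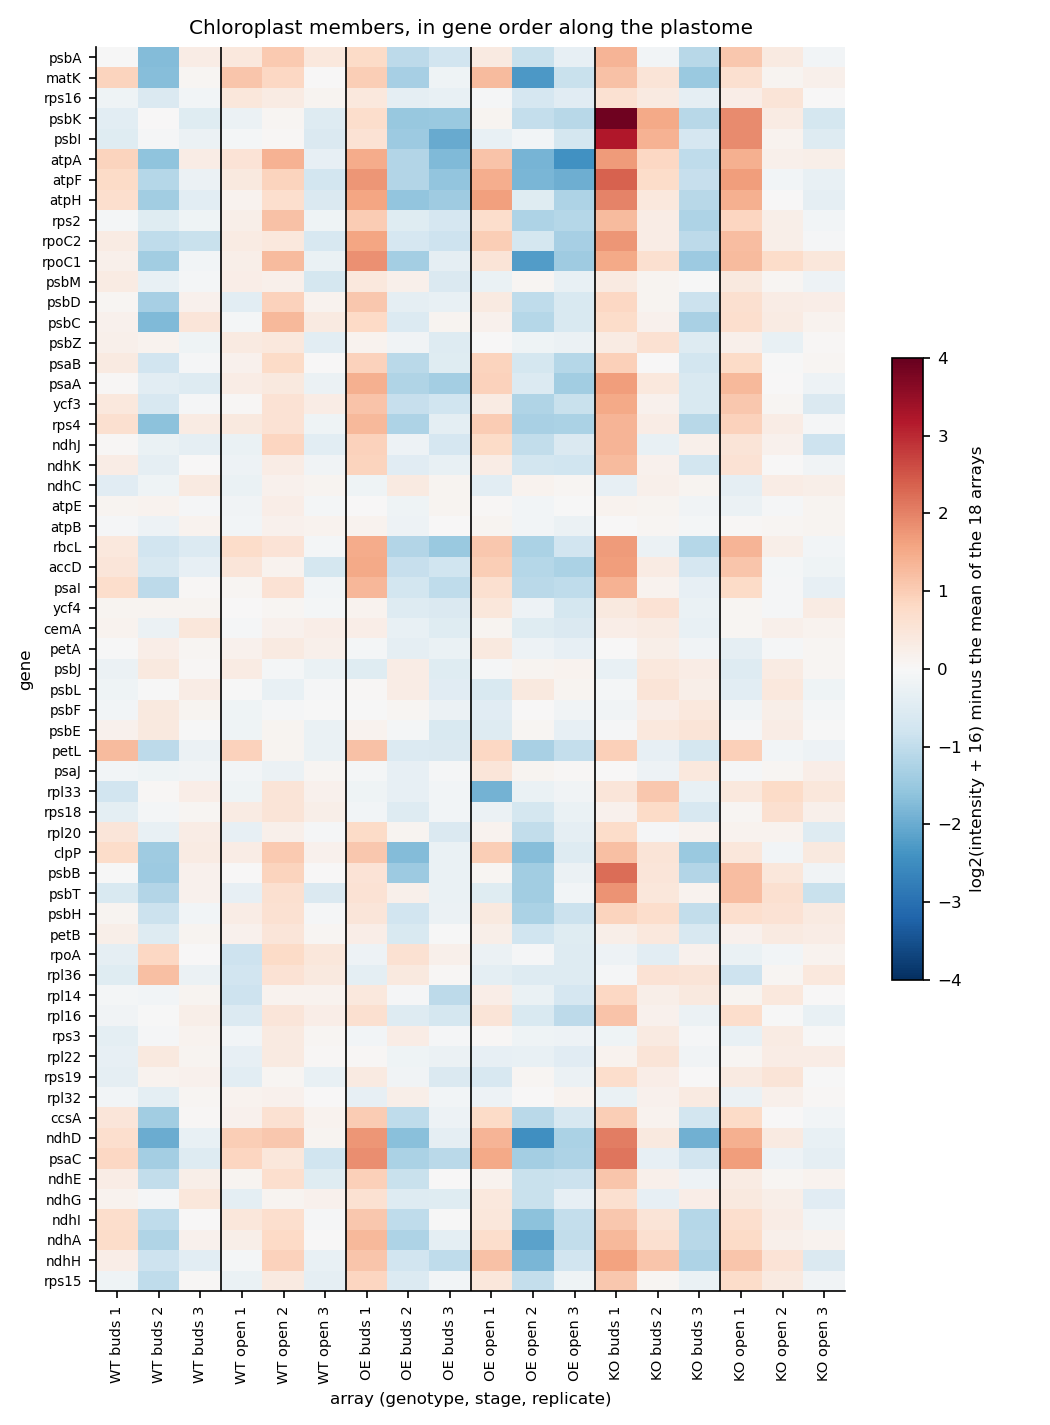
Deviation of each tested chloroplast member (rows, in gene order) from its mean over the 18 arrays (columns, grouped by genotype and stage), as log2(intensity + 16). Replicate 1 columns of OE buds and KO buds are mostly red, with rows such as atpE, atpB, psbF and rps3 pale throughout.

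Not all members shared the pattern. In at least 5 of the 6 groups, 34 of the 61 members had their highest value on the array with the highest chloroplast median, and 14 did so in at most 2 groups. That median comes from these same members, so a part of this sharing is built in. Members lower in replicate 1 included rpoA (-0.53), rpl36 (-0.72), ndhC (-0.51) and rpl33 (-0.53) on the log2 scale. The rpoA intensities were 2291, 5217 and 2961 in WT buds, where atpA read 6374, 1118 and 4180, so the array with the highest rpoA had the lowest atpA there.

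Between WT open flowers and buds, limma called 0 of 61 chloroplast members at an adjusted p under 0.05, while 23.4% of all tested probe sets were called. An unadjusted p under 0.05 was found for 1 member, against 4967 of all 15113 tested probe sets. The median log2 change (open minus buds) was 0.28 for the members and -0.04 for all tested probe sets. Positive values were found for 46 of 61 members and for 6915 of all 15113. Leaving out 1 array at a time, the members' median ranged from 0.08 (without WT bud replicate 2) to 0.43. The median standard error was 0.45 for chloroplast members against 0.18 for all tested probe sets. Stage groups did not overlap for 3 members that were higher in open flowers (16.6% of all tested probe sets) and 1 that was lower (17.7%).

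By complex, the WT stage medians were 0.38 for photosystem I (7 tested), 0.07 for photosystem II (14), 0.39 for the ATP synthase (5), 0.24 for the NADH dehydrogenase-like complex (9) and 0.24 for ribosomal proteins (14). The smallest p belonged to rps16, a protein of the small ribosomal subunit, at 164, 118 and 169 in buds and 257, 237 and 201 in open flowers. All open flower arrays lay above all bud arrays, and the log2 change was 0.58 ± 0.26 (SE, adjusted p = 0.120). With the replicate number as a block it was called (adjusted p = 0.0460, with 28.9% of all tested probe sets called). For rps18, another small-subunit protein, intensities of 1145, 1430 and 1588 in buds and 1899, 2123 and 1773 in open flowers gave 0.48 ± 0.26 (SE, adjusted p = 0.215).

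psbA, which encodes the D1 protein of the photosystem II reaction centre, read 1325, 389 and 1644 in WT buds and 1808, 2783 and 1777 in open flowers. The groups did not overlap, and the change of 1.11 ± 0.60 (SE) had an adjusted p of 0.216. rbcL, the large subunit of Rubisco, read 378, 157 and 182 in buds and 465, 409 and 261 in open flowers, with a change of 0.69 ± 0.76 (SE, adjusted p = 0.590). Without replicate 1 of every group, limma called psbA (1.45, adjusted p = 0.0413) and rbcL (0.89, adjusted p = 0.0488), among 21.7% of all tested probe sets. psbA and rbcL were both named after their values were seen. Replicate 1 had the highest chloroplast median of the WT bud arrays and the lowest of the WT open flower arrays. Leaving it out thus widens the median stage change of the members, which was 0.48 in that fit.

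In OE, 47 of 61 stage changes of chloroplast members were negative, against 8663 of all 15113. The members' median was -0.23, against -0.08 over all tested probe sets. That median was 0.10 without OE bud replicate 1 and -0.58 without OE open flower replicate 1, so 1 array turned its direction. limma called 0 members, against 31.1% of all, and 1 had an unadjusted p under 0.05, against 6168 of all 15113. That member was psaJ, at 8825, 7439 and 9059 in buds and 13031, 10076.5 and 9653 in open flowers, where groups did not overlap, as for 19.6% of all tested probe sets (0.36 ± 0.15 SE, adjusted p = 0.0814). It was called with the replicate block (adjusted p = 0.0353, 38.6% of all), with arrays centred on their medians (0.0482, 29.9%) and with quantile normalization (0.0423, 29.7%). Without replicate 1 of every group psbI was called instead (1.32, adjusted p = 0.0496, 27.6% of all). The second smallest p in OE was that of psbT (-0.84 ± 0.53 SE, adjusted p = 0.253), and rpl22, named after its values were seen, was lower without overlap, as for 25.6% of all tested probe sets. In KO, 31 of 61 were negative, against 8144 of all 15113, and the median was -0.01, against -0.03. The members' median ranged from -0.32 to 0.26 without KO bud replicate 3 or 1. In KO 0 were called, against 20.9% of all, and 0 had an unadjusted p under 0.05, against 4504 of all 15113. The smallest p values in KO were those of psbE (-0.23 ± 0.20 SE, adjusted p = 0.513) and rpl36 (-0.45 ± 0.40 SE, adjusted p = 0.532). The difference of the stage change between OE and WT had a median of -0.54 over the members. Without OE bud replicate 1 this median was -0.10, and without OE open flower replicate 1 it was -0.92. limma called 0 members here, against 0.179% of all. An unadjusted p under 0.05 was found for 1 member, rps16 (-0.89 ± 0.36 SE, adjusted p = 0.495), against 1300 of all 15113. For KO against WT the median was -0.27, with 0 called against 0% of all and 0 at an unadjusted p under 0.05 (145 of all 15113). It was 0.06 without KO bud replicate 1 and -0.67 without KO bud replicate 3.

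In open flowers, 58 of 61 chloroplast members were lower in OE than in WT, against 8129 of all 15113 tested probe sets. The members had a median log2 difference of -0.49, against -0.02 over all tested probe sets. Without OE open flower replicate 1 the median was -0.86, and without WT open flower replicate 2 it was -0.28. limma called none of the members (0 of 61, against 0.682% of all tested probe sets), and 3 had an unadjusted p under 0.05, against 1511 of all 15113. All 14 ribosomal protein members, all 9 NADH dehydrogenase-like members and all 5 ATP synthase members were negative, with medians of -0.41, -0.64 and -0.15. Many members moved together on an array, so these counts are not independent observations, and each group had 3 arrays. Members above 0 were psaJ (0.31), psbJ (0.08) and psbL (0.08), small photosystem subunits named after their values were seen.

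Smallest p values in that comparison belonged to rps18 and rps16. The rps18 intensities were 1278, 909 and 1229 in OE and 1899, 2123 and 1773 in WT open flowers, with a log2 difference of -0.77 ± 0.26 (SE, adjusted p = 0.266). For rps16, 180, 111 and 133 in OE against 257, 237 and 201 in WT gave -0.67 ± 0.26 (SE, adjusted p = 0.336). In both, no OE array reached a WT array, which held for 3 members in the lower direction, as for 7.11% of all tested probe sets. The largest difference was that of atpA, the alpha subunit of the ATP synthase, at 7453, 937 and 618 in OE and 5032, 8889 and 2694 in WT (-1.59 ± 0.94 SE, adjusted p = 0.624). Here replicate 1 of OE lay inside the WT range and the other arrays lay below it. atpA was named after its values were seen.

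Without replicate 1 of every group the median OE minus WT difference in open flowers was -0.90, and limma called 6 chloroplast members lower among 1.45% of all tested probe sets. These were atpA (-2.66, adjusted p = 0.0481), the photosystem I core gene psaB (-1.33, 0.0432), the small photosystem I subunit psaI (-1.28, 0.0484), the photosystem I assembly gene ycf3 (-1.50, 0.0338), petL of the cytochrome b6f complex (-1.05, 0.0451) and the ribosomal protein gene rpl16 (-1.21, 0.0070). This fit has 2 arrays in a group. Replicate 1 had the highest chloroplast median of the OE open flower arrays (10.61, against 9.51 and 9.58). Among the WT open flower arrays it had the lowest (10.46, against 11.06 and 10.47). Leaving it out of both groups therefore widens the median difference, and between the replicate 1 arrays OE was above WT.

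**Figure D4:**
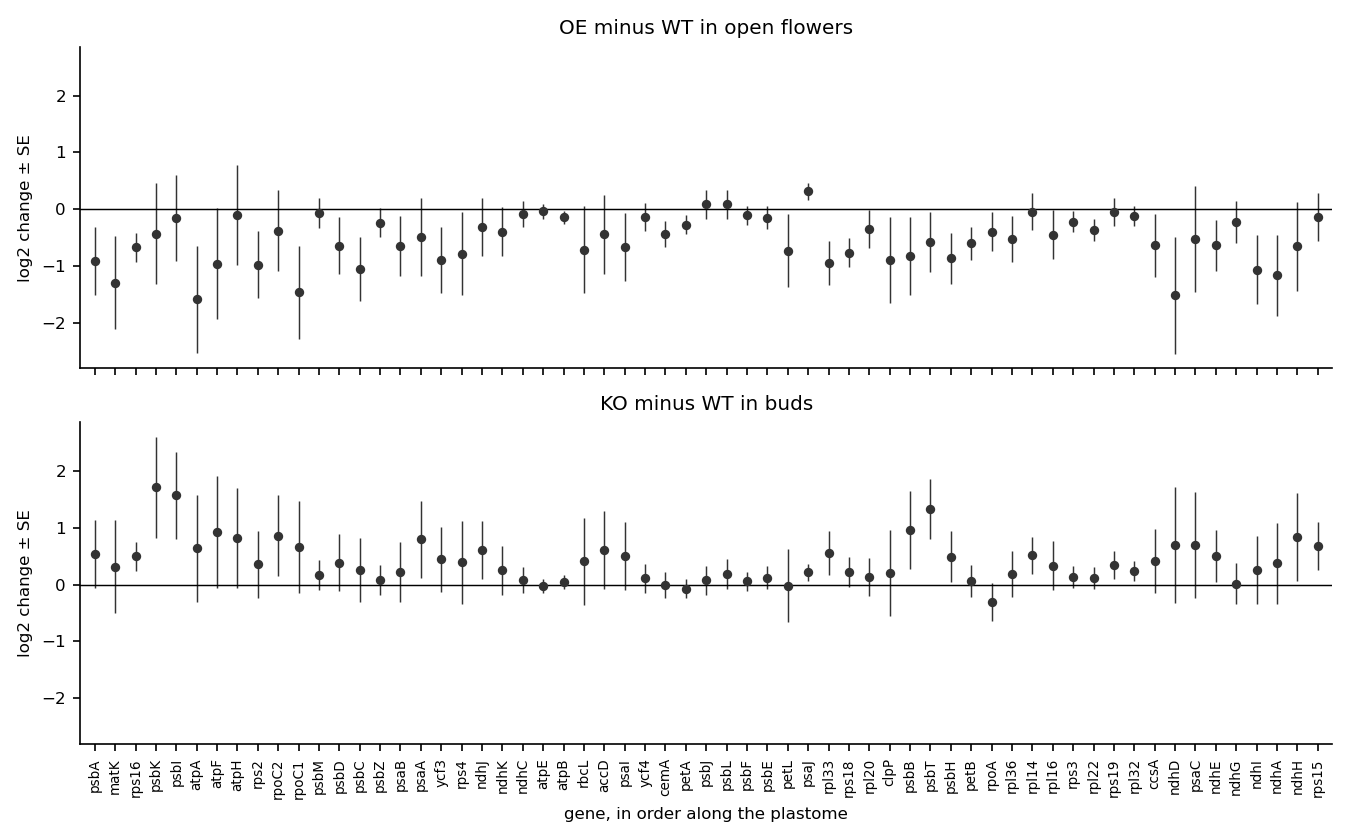
Log2 difference with its SE (vertical axes) of each tested chloroplast member in gene order, for OE minus WT in open flowers (top) and KO minus WT in buds (bottom). Of 61 members, 58 lie below 0 at the top and 56 lie above 0 at the bottom, and limma called none in either.

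In KO buds, 56 of 61 chloroplast members were above WT buds, against 8568 of all 15113 tested probe sets. The members had a median of 0.34, against 0.03 over all tested probe sets, and again did not vary independently. limma called 0 of the members, against 0.00662% of all tested probe sets, and 1 had an unadjusted p under 0.05, against 429 of all 15113. Leaving out KO bud replicate 1 took the median to 0.03, and leaving out KO bud replicate 3 took it to 0.79. Ranked from the most positive difference among all 15113 tested probe sets, the photosystem II genes psbK, psbI and psbT took ranks 1, 2 and 5. That ranking takes no account of spread. The within-group SDs of psbK, psbI and psbT exceeded those of 99.9%, 99.8% and 98.9% of tested probe sets, and none of them was called. Genes psbK and psbI encode small subunits near the CP43 side of the photosystem II core and are neighbours on the plastid genome.

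The psbK intensity was 8294, 1590 and 245 in KO buds, against 406, 561 and 391 in WT buds and 903, 181 and 187 in OE buds. In KO open flowers it was 2092, 699 and 328, against 469, 582 and 377 in WT and 588, 279 and 243 in OE. Both KO replicates numbered 1 and 2 were above every WT array and KO replicate 3 was below every WT array, at either stage. The log2 difference in buds was 1.71 ± 0.89 (SE, adjusted p = 1.00). psbI read 5581, 1589 and 366 in KO buds against 421, 572 and 497 in WT buds, and 2242, 651 and 408 in KO open flowers against 554, 605 and 387. Its difference in buds was 1.57 ± 0.76 (SE, adjusted p = 1.00), and leaving out KO bud replicate 1 or 3 gave 0.62 or 2.56.

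psbT, a small subunit of the photosystem II core, read 658, 246 and 194 in KO buds against 110, 68.8 and 201 in WT buds (1.33 ± 0.53 SE, adjusted p = 1.00). psbB, which encodes the core antenna protein CP47 and lies in the same operon, read 1062, 304 and 86.6 in KO buds against 211, 67.5 and 240 in WT buds (0.96 ± 0.69 SE, adjusted p = 1.00). Groups overlapped for all 4 of these genes, and KO replicate 1 was the highest array for each. By contrast atpB differed by 0.04 ± 0.12 (SE) and rpoA by -0.30 ± 0.34 (SE). psbK and psbB were named after their values were seen.

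**Figure D5:**
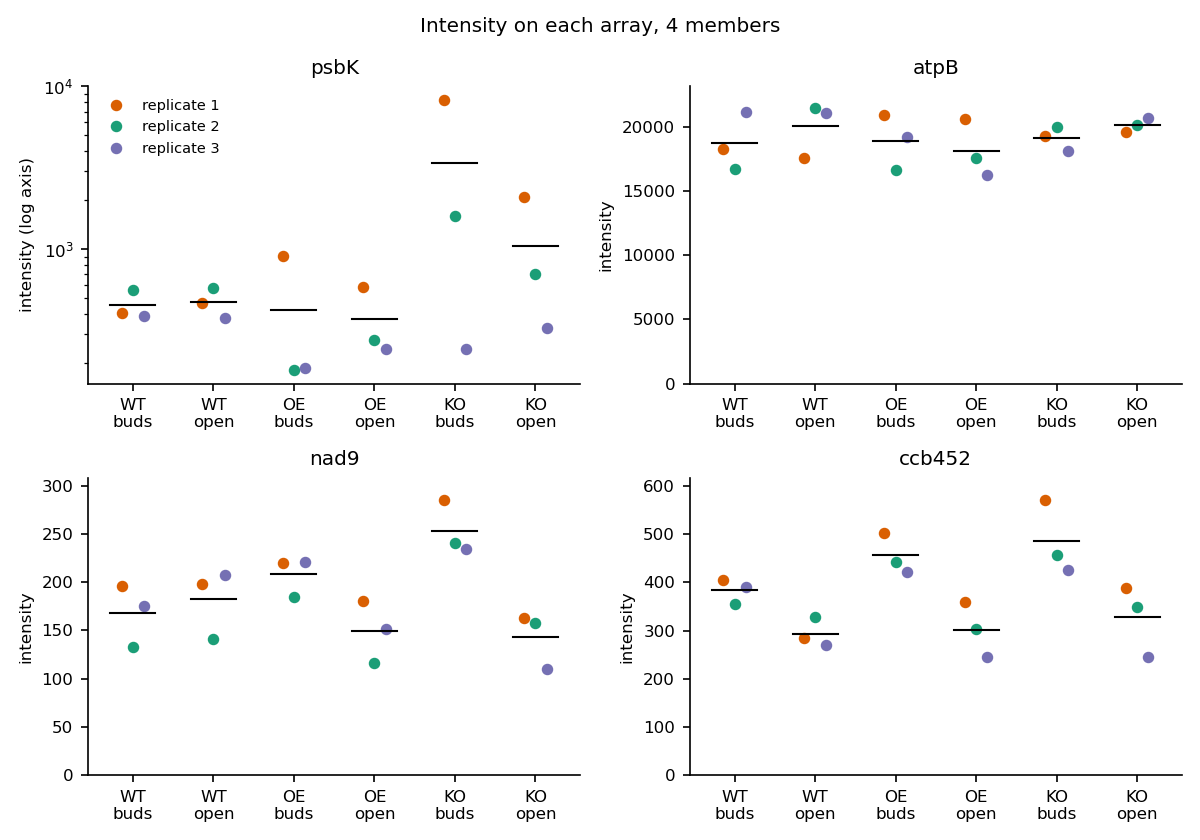
Intensity on each of the 18 arrays for psbK (log axis), atpB, nad9 and ccb452, by group; points are arrays coloured by replicate number and horizontal lines are means of 3 arrays. psbK spans 245 to 8294 within KO buds, atpB stays between 16287 and 21469, and all nad9 and ccb452 values of KO open flowers lie below those of KO buds.

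For OE minus WT in buds the median of the chloroplast members was -0.01 against 0.02 over all tested probe sets. It was -0.39 without OE bud replicate 1 and 0.25 without OE bud replicate 2. Of the members 0 were called (0.146% of all) and 0 had an unadjusted p under 0.05, against 860 of all 15113. petA, which encodes cytochrome f, had the smallest p, with 4105, 3428 and 3626 in OE and 4296, 5269 and 4629 in WT buds, every OE array being lower, as for 4.76% of all tested probe sets (-0.34 ± 0.17 SE, adjusted p = 0.887). For KO minus WT in open flowers the median was 0.06 against 0.03 (-0.06 without WT open flower replicate 3 and 0.19 without WT open flower replicate 2). In that comparison 0 were called (0.0132% of all) and 0 had an unadjusted p under 0.05, against 508 of all 15113. The smallest p there was that of rps19, at 2812, 3144 and 2161 in KO and 1626, 2279 and 1787 in WT (0.51 ± 0.25 SE, adjusted p = 1.00).

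Across the 6 groups at once, an F test in limma called 0 of 61 chloroplast members, against 31.4% of all tested probe sets. At an unadjusted p under 0.05 it had 2, against 6088 of all 15113. With the replicate block it called 5 (psbE, rpl33, psbI, rps16 and psbK, of which rpl33 was named after its values were seen), against 41.1% of all, and without replicate 1 of every group it called 14, against 29.9%. Leaving out KO bud replicate 3 alone gave 5, against 30.3% of all. Each of these shares of the members lies below that of all tested probe sets. The members with the highest mean signal in their classes, among them matK (a splicing maturase), psbM, petB (cytochrome b6), rps3 and ndhC, had means in the 6 groups of 3880 to 6107, 14799.6 to 18340.1, 9647 to 14357, 5052 to 5930 and 4886 to 5467.

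Mitochondrial members gave the few calls. Of 8 tested, 1 was lower in OE open flowers than in OE buds and 2 were lower in KO open flowers than in KO buds, where 16.9% and 9.8% of all tested probe sets were called lower. In WT 0 were called, against 23.4% of all, and 1 had an unadjusted p under 0.05, against 4967 of all 15113. Median stage changes were 0.10 in WT, -0.45 in OE and -0.28 in KO. Leaving out 1 array at a time, they ranged from -0.03 to 0.31 in WT, from -0.57 to -0.27 in OE and from -0.48 to -0.05 in KO.

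ccb452, named ccmFC in RefSeq, encodes a subunit of the machinery for cytochrome c maturation. It read 404, 356 and 390 in WT buds and 285, 327 and 269 in WT open flowers, 503, 443 and 421 against 359, 302 and 245 in OE, and 572, 458 and 425 against 388, 350 and 246 in KO. Open flowers lay below buds in all 3 genotypes with no overlap, a separation found in 17.7% of all tested probe sets in WT and in KO and in 25.6% in OE. The log2 changes were -0.37 ± 0.17 (SE, adjusted p = 0.146) in WT, -0.58 ± 0.17 (SE, adjusted p = 0.0156) in OE and -0.56 ± 0.17 (SE, adjusted p = 0.0267) in KO. The stage change differed from WT by -0.21 ± 0.24 (SE, adjusted p = 0.856) in OE and by -0.19 ± 0.24 (SE, adjusted p = 1.00) in KO. Without replicate 3 of OE open flowers the OE call was lost (adjusted p = 0.0874), as it was without replicate 1 of OE buds (0.0659). Its probe set is of the type that can match several transcripts.

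nad9 encodes a subunit of complex I of the respiratory chain. It read 286, 240 and 235 in KO buds and 162, 157 and 110 in KO open flowers, without overlap, a change of -0.77 ± 0.20 (SE, adjusted p = 0.0083). In OE the values were 220, 184 and 221 in buds and 181, 116 and 152 in open flowers (-0.45 ± 0.20 SE, adjusted p = 0.0966, and 0.0426 with the replicate block). In WT they were 196, 133 and 175 in buds and 199, 142 and 208 in open flowers, which overlapped (0.11 ± 0.20 SE, adjusted p = 0.764). The KO stage change differed from that in WT by -0.88 ± 0.28 (SE, adjusted p = 1.00), and the OE stage change by -0.56 ± 0.28 (SE, adjusted p = 0.607). Without replicate 3 of KO open flowers the KO change was -0.61 (adjusted p = 0.0570).

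The other member of smallest p in the WT stage comparison was nad4L (0.46 ± 0.27 SE, adjusted p = 0.251).

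Between genotypes, 0 mitochondrial members were called in any of the 4 comparisons, with 1, 0, 2 and 0 at an unadjusted p under 0.05 for OE in buds, OE in open flowers, KO in buds and KO in open flowers. Of all 15113 tested probe sets, 0.146%, 0.682%, 0.00662% and 0.0132% were called in these comparisons, and 860, 1511, 429 and 508 had an unadjusted p under 0.05. In KO buds 7 of 8 were above WT, with a median of 0.41 against 0.03 over all tested probe sets, and without KO bud replicate 1 the median was 0.09. nad4L, another complex I subunit, read 181, 158 and 127 in KO buds and 72.6, 51.1 and 103 in WT buds. The groups did not overlap, and the difference was 0.93 ± 0.27 (SE, adjusted p = 1.00). nad9 did not overlap either, at 286, 240 and 235 against 196, 133 and 175 (0.56 ± 0.20 SE, adjusted p = 1.00). Such a separation in the higher direction occurred in 3 of 8 mitochondrial members and in 4.56% of all tested probe sets. In OE buds all 8 were above WT, nad4L by 0.68 ± 0.27 (SE, adjusted p = 0.781), and in OE open flowers 5 of 8 were below WT. Of all 15113 tested probe sets, 8568 were above WT in KO buds, 8276 above in OE buds, 8129 below in OE open flowers and 8611 above in KO open flowers. In KO open flowers 6 of 8 were above WT, and nad9 was at -0.32 ± 0.20 (SE, adjusted p = 1.00). The mean intensities of nad4 (complex I), cox2 (complex IV) and orfX (mttB in RefSeq) ranged over the 6 groups from 413 to 583, 126 to 169 and 95.7 to 150.

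The F test over 6 groups called nad9 (adjusted p = 0.0360) and ccb452 (adjusted p = 0.0097) of the 8 mitochondrial members, which is 2 against 31.4% of all tested probe sets.

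Nuclear genes for the same complexes were poorly covered by named probe sets. Of 36 listed genes for photosystems and light harvesting 6 were tested, and in OE open flowers against WT their median was 0.19, with 0 called in that comparison. LHCB4.2, a minor antenna protein, was the 1 of these 6 called between OE stages, where 31.1% of all tested probe sets were called. It was higher in open flowers (0.49 ± 0.17 SE, adjusted p = 0.0410). Of 20 listed nuclear genes of the respiratory chain 8 were tested. SDH1-1, the flavoprotein subunit of complex II, was the 1 of the 8 called between stages in WT and in OE. It was higher in open flowers in WT (0.73 ± 0.16 SE, adjusted p = 0.0018) and in OE (0.77 ± 0.16 SE, adjusted p = 9.6e-04). Of all tested probe sets 23.4% were called in WT and 31.1% in OE. In WT 5 of the 8 changes were negative, and in KO 0 of the 8 were called, against 20.9% of all. Of 11 partners of cytochrome b6f, ATP synthase and Rubisco 2 were tested, and of 20 organelle RNA polymerase and sigma factor genes 1 was tested, the polymerase gene RPOTmp, with 0 called in either list in the 9 comparisons.

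The members left untested were dim. They were petG, psbN, petD, ndhF, atpI, rpoB, petN and rps14 of the chloroplast and ccb203 (ccmFN2 in RefSeq), nad7, matR and nad6 of the mitochondrion. petG, a small subunit of the cytochrome b6f complex, read 402, 122 and 101 in KO buds and 96.0, 74.8 and 96.1 in WT buds. petG was named after its values were seen. matR, a splicing maturase and the single member of its class, lay between 3.09 and 93.2 on all arrays.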

How the data were processed

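Total RNA of 18 samples in 6 groups was hybridised to 1-colour Affymetrix ATH1 arrays, 1 array a sample. The authors deposited 1 intensity per probe set and array on a linear scale, as the series table's values show, and no source used here gives the software and scaling behind those intensities. Depth has no counterpart on arrays, and the number of arrays limits the precision. Groups were taken from the sample titles, although the growth text and free description of every sample read wild-type. The titles call the arrays of a group biological replicates and do not say what was separate between them, and p-values measure the spread between these samples.

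Of 22810 probe sets, 64 controls, 1 with an empty cell and 7632 not above their array's 40th percentile on at least 3 arrays were left out, leaving 15113. Values were tested as log2(intensity + 16) without further normalization, so folds of dim probe sets are understated. limma 3.58.1 in R 4.3.3 fitted 6 group means on all arrays (12 residual degrees of freedom, variance prior with trend), with Benjamini-Hochberg adjustment over all tested probe sets and calls at an adjusted p under 0.05. Every adjusted p in the text comes from limma. Mean signals of different probe sets were ranked within a class to choose names and were given beside the spread of some genes. They were not otherwise compared. On data simulated for KO minus WT in buds over 15113 probe sets, 78% of changes of log2 size 1 and 97% of size 2 were recovered, with 11 false calls. In that comparison the median standard error was 0.45 for chloroplast members and 0.18 over all tested probe sets. These shares therefore do not carry over to the chloroplast members, and 0 calls do not show that they were unchanged.

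Over all tested probe sets, arrays of the same replicate number deviated together (r of 0.106 to 0.599 between groups, above 0.1 in every pair). The number was therefore used as a replicate block in an alternative fit. Over chloroplast members r was -0.406 to 0.936, so some pairs with the same number deviated in opposite directions. The titles number the replicates of a group, but no label pairs equal numbers across groups, so this pairing comes from the data. In the order of the series, the replicate 1 samples of all groups stand together ahead of the other replicates. The part of this order in the differences of replicate 1 was not tested. The alternatives were centring, quantile normalization, pseudocounts of 1 and 64, no filter and a stricter filter, the replicate block, a robust variance prior, and leaving out arrays. Named genes were the brightest member of each class, the called members (up to 5 in each direction) and, where none was called, the 2 members with the smallest p, and others are marked. The members, lists and operons were chosen with earlier results of these data known. No sequence was used, so the planned promoter motif search was not run.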

Additional observations from a re-analysis of the deposited data

How the results depend on the processing

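Of the counts of called members under the alternatives, 508 stayed within 1.5 times and 32 did not. Every chloroplast count was 0 in the main fit, and few probe sets of the whole array were called between genotypes. Many counts thus had little room to move, and the 508 do not measure stability. Of the medians, 485 moved by less than the SD between replicate arrays and 1 by more, but that SD is wide (0.60 for chloroplast and 0.27 for mitochondrial members), and single arrays moved several medians by over 1.5 times or across 0, as given beside them. With the replicate block the count of called chloroplast members went from 0 to 1 in the WT stage comparison (rps16), from 0 to 1 in the OE stage comparison (psaJ) and from 0 to 5 in the F test, and that of mitochondrial members in the OE stage comparison from 1 to 2 (nad9), and the block moved no other count of called members by more than 1.5 times. Without replicate 1 of every group the chloroplast counts were 2 in the WT stage, 1 in the OE stage, 6 in the OE minus WT comparison of open flowers and 14 in the F test, and the mitochondrial counts were 1 in the KO stage and 1 in the F test. In that fit ccb452 in KO minus WT open flowers reversed from 0.13 to -0.0163, and its KO stage change had an adjusted p of 0.0508 in limma. Centring and quantile normalization each gave 1 chloroplast call in the OE stage and 1 mitochondrial call in the F test. No filter and the stricter filter each gave 1 mitochondrial call in the F test, and the stricter filter, which tested 3 mitochondrial members, gave 1 in the KO stage. The cause was not tested, apart from the fewer members tested under the stricter filter.

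Leaving out 1 array at a time, chloroplast calls ranged from 0 to 5 in the F test and from 0 to 1 in the OE stage, both highest without KO bud replicate 3. Mitochondrial calls ranged from 0 to 1 in the OE stage, from 0 to 2 in the KO stage and from 1 to 2 in the F test. The median mitochondrial KO minus WT change in buds ranged from 0.0922 to 0.6244. The ccb452 KO stage call was lost without KO bud replicate 1 (adjusted p = 0.129 in limma) and without KO open flower replicate 3 (0.169).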

Other observations

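Some mitochondrial genes are covered by probe sets outside the block of identifiers used above, among them several for nad1, a complex I subunit. One nad1 probe set averaged 164 ± 17.6 (SD, n = 3) in WT buds and 113 ± 26.8 in WT open flowers, 179 ± 11.6 and 109 ± 26.0 in OE, and 188 ± 40.4 and 113 ± 29.1 in KO. Its stage change was called lower by limma in OE (-0.66, adjusted p = 0.0274) and in KO (-0.67, adjusted p = 0.0358), and was -0.49 in WT (adjusted p = 0.123). Of all tested probe sets, 16.9% were called lower in OE and 9.8% in KO. The 3 other tested nad1 probe sets had OE stage changes of -0.17, -0.21 and -0.45, none of them called. In KO theirs were -0.41, -0.27 and -0.15 and in WT 0.03, -0.33 and -0.37, also not called. A nad5 probe set, also for complex I, was called lower in WT open flowers than in WT buds (-0.79, adjusted p = 0.0245), and its stage change was -0.57 in OE (adjusted p = 0.0880) and -0.16 in KO (adjusted p = 0.744). Between WT stages 23.4% of all tested probe sets were called. A cox1 probe set had stage changes of -0.20 in WT, 0.16 in OE and -0.34 in KO, none of them called. A probe set listed for atp1 and another gene had 0.09, 0.01 and -0.08, also not called. All these probe sets were looked at after the results above were known.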
